A study of Mus musculus with 2 samples.

Results

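Muscle satellite cells were picked out of 2 scRNA-Seq libraries of mouse hind limb muscle after nerve crush by the genes detected in each cell barcode. A barcode was counted as a satellite cell if it had more than 200 genes, less than 10% mitochondrial unique molecular identifiers (UMIs), a UMI of at least 2 of the 5 marker genes *Pax7*, *Myf5*, *Calcr*, *Chodl* and *Chrdl2*, no UMI of the differentiation genes *Myog* or *Mymk*, and no UMI of *Csf1r*, *C1qa*, *Pdgfra* or *Pecam1*, which mark macrophages, mesenchymal cells and endothelium. These criteria found 2890 satellite cells among 48143 barcodes that passed the filters on genes and mitochondrial UMIs. Of them, 1854 came from the IgG library and 1036 from the SPP1-nAb library.

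The study asked how secreted phosphoprotein 1 (SPP1, osteopontin) acts in muscle whose nerve supply is being restored. Both groups were *S100GFP*-tg mice, labeled as C57BL/6J, in which an S100 promoter drives GFP, chiefly in Schwann cells, and both had a bilateral crush of the peroneal nerve at 10 to 16 weeks of age. The tibialis anterior (TA) muscle received 10 μL with 2 μg of antibody at the injury and every 2 days afterward, as goat anti-mouse IgG in 1 group and as SPP1-neutralizing antibody (SPP1-nAb) in the other, and cells were taken at 7 days postinjury (dpi). Each library came from pooled male mice, according to the study's methods. For the muscle, the methods and the labels name both TA and gastrocnemius, while the study's account of this experiment names TA alone. For the sort, the methods and the labels' protocol name GFP+ and GFP- live cells, while the sample titles name S100GFP-positive cells. There was no library without injury or without injection. Each group was 1 library, so the antibody and the library cannot be told apart, no test between groups could be made, and every interval given is a 95% interval that covers counting error only.

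Satellite cells are the stem cells of skeletal muscle, lying between the muscle fiber and its basement membrane. In resting muscle they are quiescent and carry *Pax7*, and upon activation they express *Myod1*, divide, and either return to quiescence or express *Myog* and fuse. The calcitonin receptor *Calcr*, Notch receptors and the growth factor antagonist *Spry1* are known as parts of the machinery that holds them in quiescence, and an intron of *Calcr* carries the precursor of miR-489, a microRNA known for the same role. MicroRNAs themselves are not counted by this assay.

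*Calcr*, *Meg3*, *Rian* and *Mirg*, whose levels are given further on, host microRNAs, and the mature sequences from RefSeq (build GRCm38.p6) are shown because the host transcript is the nearest thing to them that was counted. In each sequence the capitals mark the seed, bases 2 to 8 from the 5′ end. *Calcr* lies on the minus strand of chromosome 6, and the table held 4 mature microRNAs within it, 2 from each of 2 precursors in its intron.
mmu-miR-489-3p: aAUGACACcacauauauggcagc
mmu-miR-489-5p: uGUCAUAUgugugaugacacuuucu
mmu-miR-653-5p: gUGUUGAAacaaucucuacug
mmu-miR-653-3p: uUCACUGGaguuuguuucagu
The other 3 hosts, *Meg3*, *Rian* and *Mirg*, are noncoding RNAs transcribed one after another from the maternal copy of an imprinted region of chromosome 12. The table held 3, 6 and 19 mature microRNAs within them, from which 1 of *Meg3*, 1 of *Rian* and 3 of *Mirg* are shown.
mmu-miR-770-5p: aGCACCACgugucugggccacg
mmu-miR-370-3p: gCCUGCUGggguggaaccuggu
mmu-miR-377-3p: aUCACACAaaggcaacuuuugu
mmu-miR-409-3p: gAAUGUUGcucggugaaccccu
mmu-miR-410-3p: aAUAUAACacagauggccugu
No seed was shared among the 9 sequences shown. The positions given from here on are on GRCm39. The precursors of miR-489 (chr6:3721897-3722003) and miR-653 (chr6:3721301-3721385), on the minus strand, lay in an intron of *Calcr*. On the plus strand, the precursor of miR-409 (chr12:109709592-109709670) lay in an intron of *Mirg*, and those of miR-377 (chr12:109706944-109707011) and miR-410 (chr12:109710149-109710229) overlapped an exon of a *Mirg* transcript. The precursor of miR-370 (chr12:109584692-109584770) overlapped an exon of *Rian* and that of miR-770 (chr12:109530126-109530219) an exon of *Meg3*.

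Satellite cells made up 7.93% (95% CI 7.58 to 8.28) of the filtered IgG barcodes and 4.18% (3.94 to 4.44) of the filtered SPP1-nAb barcodes. The SPP1-nAb share was also the lower among barcodes without a UMI of the leukocyte gene *Ptprc*, at 13.6% (12.8 to 14.4) of 7171 compared with 18.8% (18.0 to 19.6) of 9457 in IgG. Mesenchymal-type barcodes, those with *Pdgfra* and *Dcn*, made up 8.27% and 2.92% of the filtered barcodes. The sort gates set the makeup of both suspensions, and their part in these shares was not tested.

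The SPP1-nAb library was the deeper of the pair, with 127719916 UMIs on 25069 deposited barcodes compared with 97607674 UMIs on 23779 in the IgG library. The same held for the satellite cells, whose median was 3018 UMIs and 1425 genes in SPP1-nAb and 2237 UMIs and 1114 genes in IgG. Summed over cells, the satellite cells held 5100055 IgG UMIs and 3754055 SPP1-nAb UMIs, and levels were therefore taken as counts per 1000000 (CPM) of these sums. Median mitochondrial shares were 3.33% in IgG and 2.93% in SPP1-nAb. The libraries shared 163 barcode sequences, none of which was a satellite cell in both.

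All 5 marker genes, which chose the cells, had a lower CPM in SPP1-nAb satellite cells, from a small difference for *Pax7* to a large one for *Chrdl2*. *Pax7*, the paired box transcription factor of satellite cells (chromosome 4, 139464373 to 139560839), was at 573 CPM in IgG and 487 in SPP1-nAb. *Myf5*, a myogenic regulatory factor (chromosome 10, 107318769 to 107321995), was at 419 and 272 CPM. *Calcr* (chromosome 6, 3685680 to 3764714) was at 314 and 161 CPM, *Chodl*, which encodes the lectin chondrolectin, at 871 and 686, and *Chrdl2*, which encodes a secreted BMP antagonist of the chordin family, at 136 and 51.9. Since a cell needs markers to be counted, each gene was also read in cells picked by at least 2 of the other 4 markers. The log2 ratio of SPP1-nAb over IgG was then -0.20 for *Pax7*, -0.39 for *Chodl*, -0.69 for *Myf5*, -1.03 (95% CI -1.19 to -0.88) for *Calcr* and -1.43 for *Chrdl2*. In those cells *Calcr* was detected in 37.0% of 1710 IgG cells and 26.1% of 958 SPP1-nAb cells, and *Chrdl2* in 23.6% of 1778 and 12.0% of 1013. Between satellite cells of 1500 to 4500 UMIs, where depth is more alike, the log2 ratio was -0.63 for *Calcr*, compared with -0.96 in all satellite cells, and -1.0 for *Chrdl2*, compared with -1.39.

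The satellite cells were also read by their number of markers. Exactly 2 markers were found in 721 IgG and 505 SPP1-nAb satellite cells, and all 5 in 73 and 14. *Pax7* with *Chodl* was the most frequent pair among cells with 2 markers, at 40.2% in IgG and 52.3% in SPP1-nAb. Just inside the threshold, cells with 2 markers held *Pax7* at 485 and 436 CPM and the mesenchymal gene *Dcn* at 169 and 27.3 CPM. *Dcn* was at 288 CPM in IgG and 57.9 in SPP1-nAb with 3 markers, at 320 and 12.3 with 4 and at 89.6 and 59.5 with 5. The macrophage gene *Lyz2* was at 188 and 237 CPM with 2 markers, at 196 and 215 with 3, at 174 and 466 with 4 and at 44.8 and 139 with 5. Neither gene moved one way with the number of markers. Just outside, the 657 and 481 barcodes with 1 marker that met every other criterion held *Pax7* at 123 and 145 CPM and *Dcn* at 4801 and 3305 CPM. A UMI of a macrophage, mesenchymal or endothelial gene kept 349 IgG and 312 SPP1-nAb barcodes with 2 or more markers out, and *Myog* or *Mymk* kept out 4 and 13 without such a gene.

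The leading genes of the satellite cells were taken as the 15 with the highest ratio over all other filtered barcodes among genes with at least 500 UMIs and a UMI in at least 20% of the satellite cells. Rarer genes were left out by this filter, among them *Nap1l5*, at 40.4-fold. Next to the marker genes, *Edn3*, which encodes the peptide endothelin 3, was 56.5-fold higher in CPM than in the other barcodes, and *Nppc*, which encodes C-type natriuretic peptide, was 55.2-fold higher. The transcription factors *Prox1* and *Msc* were 35.3- and 34.4-fold higher, the growth factor receptor *Fgfr4* 34.0-fold, the satellite cell cadherin *Cdh15* 32.1-fold and the Notch target *Heyl* 30.5-fold. *Drp2*, a relative of dystrophin, was 36.6-fold higher, the phosphodiesterase *Pde1c* 33.1-fold and the heparan sulfate sulfotransferase *Hs6st2* 32.7-fold. Barcodes with a *Myog* or *Mymk* UMI shared some of these genes, with *Cdh15* at 22.7 CPM in IgG and 68.2 in SPP1-nAb and *Fgfr4* at 90.6 and 94.1. The log2 ratio of satellite cells over them was 1.79 in IgG and 0.30 in SPP1-nAb for *Cdh15*, and 0.92 and 0.26 for *Fgfr4*. These ratios come from cells chosen by their expression, and they describe the cells without testing the label.

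Between the libraries, those leading genes ranged from slightly higher to lower in SPP1-nAb. *Drp2* was at 197 and 229 CPM in IgG and SPP1-nAb, a log2 ratio of 0.22 (0.08 to 0.35), and *Hs6st2* at 288 and 317, a log2 ratio of 0.14 (0.03 to 0.25). *Pde1c* was at 466 and 460, *Msc* at 147 and 136 and *Cdh15* at 81.8 and 84.7. *Edn3*, in contrast, was at 168 and 95.1 CPM, a log2 ratio of -0.82, and *Fgfr4* at 173 and 113 CPM, a log2 ratio of -0.61. *Prox1* stood between them at 219 and 182 CPM.

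**Figure D1:**
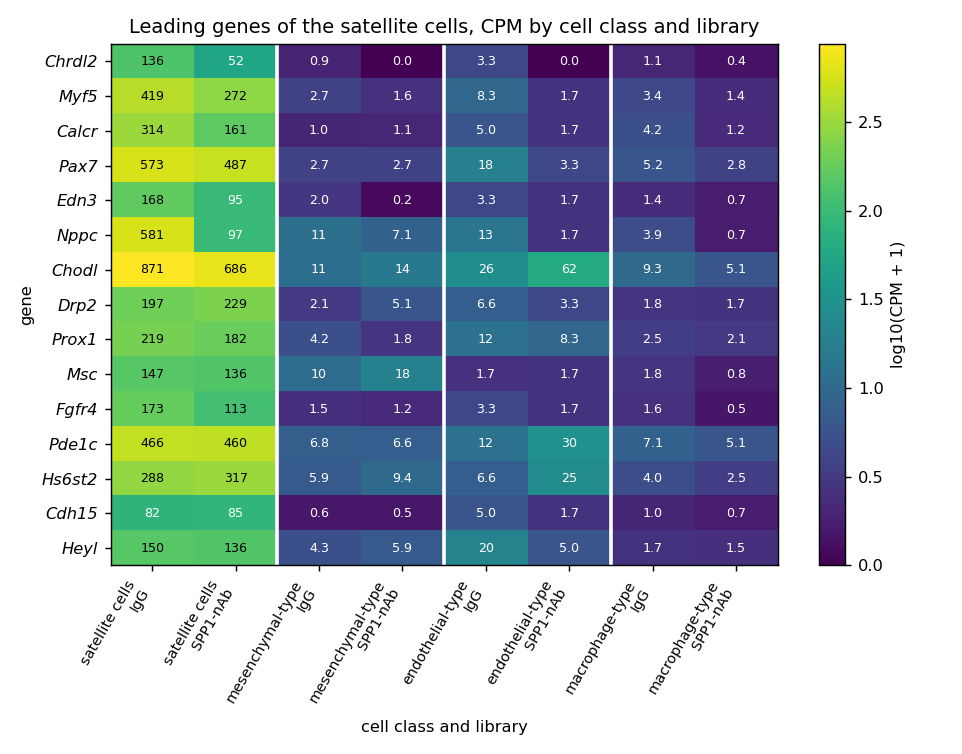
Levels of the 15 leading genes of the satellite cells (rows) in satellite cells and in mesenchymal-type, endothelial-type and macrophage-type barcodes of each library (columns), with color giving log10(CPM + 1) and the printed number the CPM. The satellite cell columns hold the highest level for every gene shown, and *Nppc* there was 581 CPM in IgG and 97.2 in SPP1-nAb.

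To find the genes whose level differed most between IgG and SPP1-nAb satellite cells, 7645 genes with at least 100 UMIs and a UMI in at least 20 satellite cells were compared. A ratio of 2-fold or more was found for 42 genes higher in SPP1-nAb (0.549% of those compared) and for 82 genes lower (1.07%). Together these are 124 genes (1.62%). All had a counting interval that left out equality, but a 2-fold ratio at 100 or more UMIs brings this by itself, so it adds no support. The median log2 ratio of all genes compared was 0.05, with quartiles of -0.14 and 0.22. Of the 4614 genes with a higher level in satellite cells than in other barcodes, 23 were higher (0.498%) and 48 lower (1.04%), and the genes named next are the 10 with the largest ratio in each direction among these. Such counts hold no replicate check.

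The genes that stood lowest in SPP1-nAb relative to IgG included the precursors of 2 secreted peptides, *Nppc* and *Gal*. *Nppc* (chromosome 1, 86594013 to 86598301), the gene of C-type natriuretic peptide, was at 581 CPM in IgG and 97.2 in SPP1-nAb, a log2 ratio of -2.58 (95% CI -2.74 to -2.42). *Gal* (chromosome 19, 3459912 to 3464881), which encodes the neuropeptide galanin, was at 475 and 121 CPM, a log2 ratio of -1.98 (-2.13 to -1.83). Both peptides act through receptors at the cell surface. SPP1-nAb satellite cells held 365 UMIs of *Nppc* and 453 of *Gal*, of which 23.8% and 44.4% came from 1% of the cells, compared with 13.3% and 20.5% in IgG.

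Rarer transcripts followed. *Nap1l5*, an imprinted gene expressed from the paternal copy, was at 47.5 CPM in IgG and 5.86 in SPP1-nAb, a log2 ratio of -3.02 (-3.72 to -2.39), with 242 and 22 UMIs. *Kcne4*, a subunit that modulates potassium channels, was at 25.7 and 3.73 CPM, and *Ttyh1*, a membrane protein of the tweety family, at 31.0 and 8.26. *Lmod2*, an actin filament nucleator of striated muscle, was at 27.1 and 7.72 CPM, with 64.5% and 79.3% of its UMIs in the 1% of cells that held the most. *Ppp1r14a*, an inhibitor of myosin phosphatase, was at 30.8 and 8.79, and *Rpgrip1*, a cilium protein, at 23.1 and 6.66. All of these were detected in under 10% of the satellite cells of either library.

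The noncoding RNA *Meg3* (chromosome 12, 109506877 to 109538165) was at 588 CPM in IgG and 197 in SPP1-nAb satellite cells, a log2 ratio of -1.58 (-1.69 to -1.46). *Mirg*, the host of miR-377, miR-409 and miR-410, lies on the same strand of the same region (109696198 to 109715898). It was at 16.7 and 5.59 CPM, a log2 ratio of -1.58 (-2.34 to -0.87), from 85 and 21 UMIs. *Rian* lies between them (109570242 to 109628150) and was looked at after the values of the other 2 were seen; it was at 152 and 58.3 CPM, a log2 ratio of -1.38 (-1.60 to -1.16). All 3 hosts of this region were thus lower by more than 2-fold in the SPP1-nAb library, though the interval of *Mirg* reached under 2-fold. Of 15 imprinted genes compared, a list written after these values were seen, the genes past 2-fold were these 3 and *Nap1l5*. All 4 were lower, as were 1.07% of all genes compared. The median log2 ratio of the imprinted genes was 0.02. Among the others, *Peg3*, *Igf2*, *Mest* and *H19* had log2 ratios of 0.19, 0.26, 0.38 and 0.46.

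The genes that stood highest in SPP1-nAb relative to IgG were led by *Fosl1*. *Fosl1* (chromosome 19, 5497575 to 5505974), which encodes the AP-1 subunit FRA-1, was at 23.3 CPM in IgG and 76.5 in SPP1-nAb, a log2 ratio of 1.71 (1.40 to 2.03). *Hmga2*, a chromatin protein of proliferating progenitors, was at 8.24 and 24.8 CPM, and *Igf2bp2*, an RNA-binding protein that is a known HMGA2 target, was at 16.1 and 44.5 CPM. *Cd109*, a surface protein that dampens TGF-β signaling, was at 15.5 and 36.5 CPM. *Rnf180*, a ubiquitin ligase, was at 46.5 and 112 CPM, and *Kctd11*, an adaptor of a ubiquitin ligase, at 12.0 and 27.4. *Sim1*, a transcription factor of the bHLH-PAS family, was at 10.0 and 26.4 CPM. The cell cycle genes *Ube2c* and *Ccne1* also belonged here, at 13.5 and 30.6 CPM and at 8.04 and 17.8 CPM, together with *Dnm3os*, a noncoding RNA antisense to *Dnm3*, at a log2 ratio of 1.16. Whether counting used the strand is not given in the sources used here. Of the *Ube2c* UMIs, 98.6% in IgG and 87.0% in SPP1-nAb came from the 1% of satellite cells with the most of them, as did 83.3% and 58.1% of the *Hmga2* UMIs, of which there were 42 and 93. In SPP1-nAb, 54 of the *Hmga2* UMIs lay in the 65 cells with 3 or more cell cycle genes. For the other 8 genes named here this share lay between 30.5% and 58.5% in IgG. With at least 3 markers required, the log2 ratio was -0.36 for *Ube2c*, 0.97 for *Hmga2* and 0.99 for *Dnm3os*. With the lineage exclusion left out it was 0.89 for *Sim1* and 0.99 for *Kctd11*, and among cells of 1500 to 4500 UMIs it was 0.87 for *Ccne1*.

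**Figure D2:**
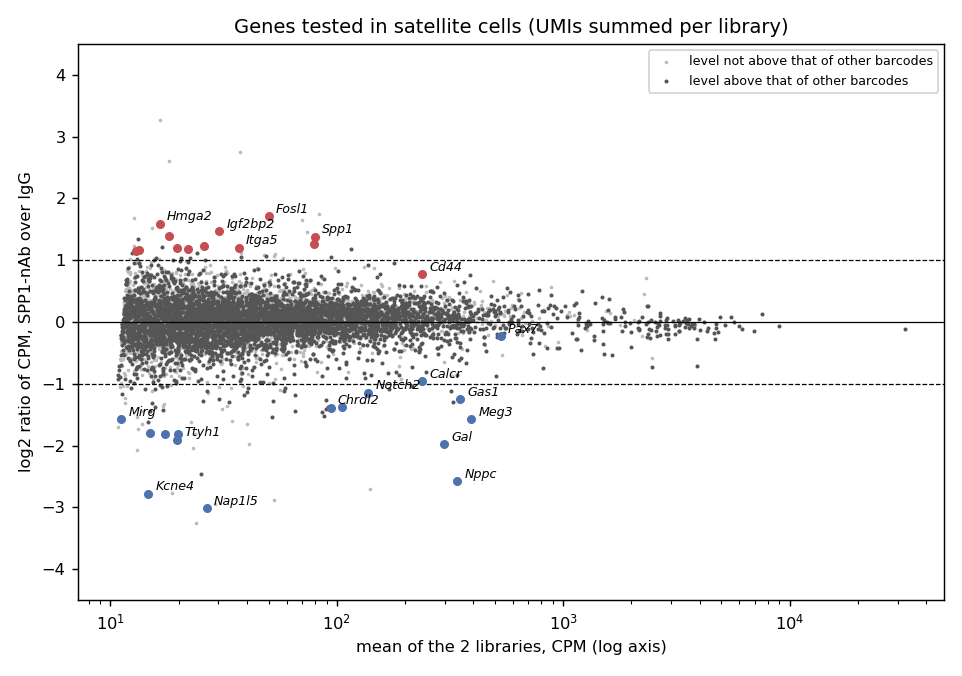
Each point is a gene compared in satellite cells, with the mean CPM of the 2 libraries on a log x axis and the log2 ratio of SPP1-nAb over IgG on the y axis, and dashed lines mark 2-fold. *Nppc* at -2.58, *Gal* at -1.98 and *Meg3* at -1.58 stand apart below among genes of high level, while *Fosl1* at 1.71 stands above.

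The genes past 2-fold that were not higher in satellite cells than in all other barcodes pooled included genes known from other cells. *Hmox1*, a heme-degrading enzyme abundant in macrophages, was at 9.61 CPM in IgG satellite cells and 65.0 in SPP1-nAb, and the eosinophil-attracting chemokine *Ccl24* and the neutrophil gene *S100a9* had log2 ratios of 2.61 and 1.75. The matrix genes *Prg4*, *Fmod*, *Dcn* and *Mmp2* had log2 ratios of -3.25, -2.76, -2.71 and -2.04. How far a few cells carried these UMIs differed by gene. The 1% of satellite cells with the most UMIs of a gene held 97.3% and 100% of *Prg4* UMIs in IgG and SPP1-nAb, 97.6% and 100% of *Fmod* and 78.0% and 46.4% of *Dcn*, and without those cells the log2 ratio of *Dcn* was -1.42. For *Hmox1* they held 49.0% and 24.2% and for *Mmp2* 24.7% and 41.2%, and without them the log2 ratios were 3.34 and -2.39. In SPP1-nAb, such cells held 93.6% of *S100a9* and 75.2% of *Ccl24* UMIs, compared with all UMIs of both genes in IgG. With the lineage exclusion left out, *Ccl24* had a log2 ratio of 0.31 and *Mmp2* of -1.01, and in satellite cells of 1500 to 4500 UMIs *Prg4* had -1.21. Marker lists of other cells were read in the satellite cells as summed levels. Of 10 macrophage genes, 9 were compared and none was past 2-fold, and their sum was 547 CPM in IgG and 670 in SPP1-nAb, with *Lyz2* the most abundant at 182 and 257, while the sum in all other barcodes was 14111 and 16496 CPM. Of 8 mesenchymal genes, 4 were compared and 1 was lower (*Dcn*, 243 and 37.3 CPM), with a sum of 729 and 518 CPM led by *Col3a1*. The sum of 5 tenocyte genes, led by *Thbs4*, was 148 and 41.3 CPM, and all 3 that were compared, *Thbs4*, *Fmod* and *Mkx*, were past 2-fold lower. The log2 ratio of *Thbs4* was -1.98, or -0.22 with the lineage exclusion left out, and that of *Mkx* -1.37, or -0.75 in satellite cells of 1500 to 4500 UMIs. The sum of 4 neutrophil genes, led by *S100a9*, was 74.9 and 243 CPM, and both that were compared, *S100a9* and *S100a8*, were past 2-fold higher.

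The remaining lists were read as sums in the same way. The 7 Schwann cell genes summed to 45.9 and 22.9 CPM, with 6 and 3 UMIs of *Sox10*, and to 102 and 72.5 in all other barcodes. The log2 ratio of this sum was -1.002, but 0.93 in satellite cells of 1500 to 4500 UMIs. The 5 endothelial genes summed to 1.76 and 1.86 CPM, the 4 lymphocyte genes to 5.29 and 2.40, the 8 myofiber genes to 55.1 and 55.4, and the 5 mural genes, led by *Acta2*, to 183 and 204. The mural sum in all other barcodes was 185 and 122 CPM, close to that in satellite cells in IgG and below it in SPP1-nAb. *Csf1r*, *C1qa*, *Pdgfra* and *Pecam1* were at 0 by the criteria. An estimate of free RNA from macrophage transcripts came to 3.82% of satellite cell UMIs in IgG and 4.34% in SPP1-nAb. A UMI of *Ptprc* was found in 77 IgG and 61 SPP1-nAb satellite cells. The part of other cells in the results was not tested beyond the alternatives without free RNA and without doublet-like cells. Gene lists of satellite cell biology are given next, each beside the median of 0.05 and the shares of 0.549% and 1.07% over all genes compared.

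Among 18 further genes of myogenic identity, 17 were compared and none was past 2-fold in either direction, with 8 above and 9 below equality and a median log2 ratio of -0.02. *Sdc4*, a heparan sulfate coreceptor, was at 1377 CPM in IgG and 1007 in SPP1-nAb. *Dag1*, which anchors the cell to laminin, was at 850 and 839 CPM, and the adhesion gene *Ncam1* at 508 and 479. *Fgfr4* had the lowest log2 ratio of the list, at -0.61, and *Six4*, a homeobox factor of the myogenic lineage, the highest, at 0.45.

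All 9 quiescence genes lay below equality, with a median log2 ratio of -0.34, and 1 of them, *Gas1*, was past 2-fold. *Gas1*, a membrane protein named for its expression in growth arrest, was at 495 CPM in IgG and 208 in SPP1-nAb, a log2 ratio of -1.25 (-1.37 to -1.14). The antiproliferative gene *Btg2* was at 653 and 356 CPM, a log2 ratio of -0.88, and *Spry1*, an antagonist of FGF signaling, at 214 and 121 CPM, a log2 ratio of -0.82. *Cd34*, a surface sialomucin of quiescent cells, was at 82.7 and 46.3 CPM. In mesenchymal-type barcodes *Gas1* was at 705 and 497 CPM and *Cd34* at 324 and 220, above the satellite cells. The 8 mesenchymal genes summed to 729 and 518 CPM in satellite cells. The part of mesenchymal RNA in the *Gas1* and *Cd34* values was not tested. The cyclin-dependent kinase inhibitors *Cdkn1b* and *Cdkn1c* had log2 ratios of -0.29 and -0.09, and the latter interval, -0.29 to 0.11, held equality. The sum over the list was 1835 CPM in IgG and 1069 in SPP1-nAb, while in all other barcodes it was 1065 and 665.

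Of 16 Notch pathway genes, 10 were compared, 9 of them below equality, with a median log2 ratio of -0.19 and 1 past 2-fold. The receptor *Notch2* was at 189 CPM in IgG and 85.5 in SPP1-nAb, a log2 ratio of -1.14 (-1.33 to -0.96), whereas the receptor *Notch3*, at 273 and 256, and the receptor *Notch1*, at 74.3 and 80.7, had intervals that held equality. The ligand *Jag1* was at 91.2 and 55.7 CPM. Of the targets, *Hes1* was at 232 and 132 CPM, a log2 ratio of -0.81, while *Heyl* was at 150 and 136 CPM and *Hey1* at 29.6 and 28.0, both with intervals that held equality. With the lineage exclusion left out, *Notch2* had a log2 ratio of -0.99. *Rbpj*, the DNA-binding partner of all Notch receptors, was at 273 and 262 CPM.

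Matrix genes of the satellite cell niche leaned the other way, with 12 of the 15 compared of 17 above equality, a median log2 ratio of 0.12 and none past 2-fold. *Sparc*, a matricellular protein, was at 1112 and 1227 CPM, and the laminin chain *Lama2* at 919 and 960. *Col5a2*, a chain of collagen V, was at 310 and 409 CPM, and the proteoglycan gene *Bgn*, the highest of the list by ratio, at 270 and 408, a log2 ratio of 0.60. Fibronectin, *Fn1*, was the lowest by ratio, at 47.8 and 27.4 CPM, a log2 ratio of -0.80.

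**Figure D3:**
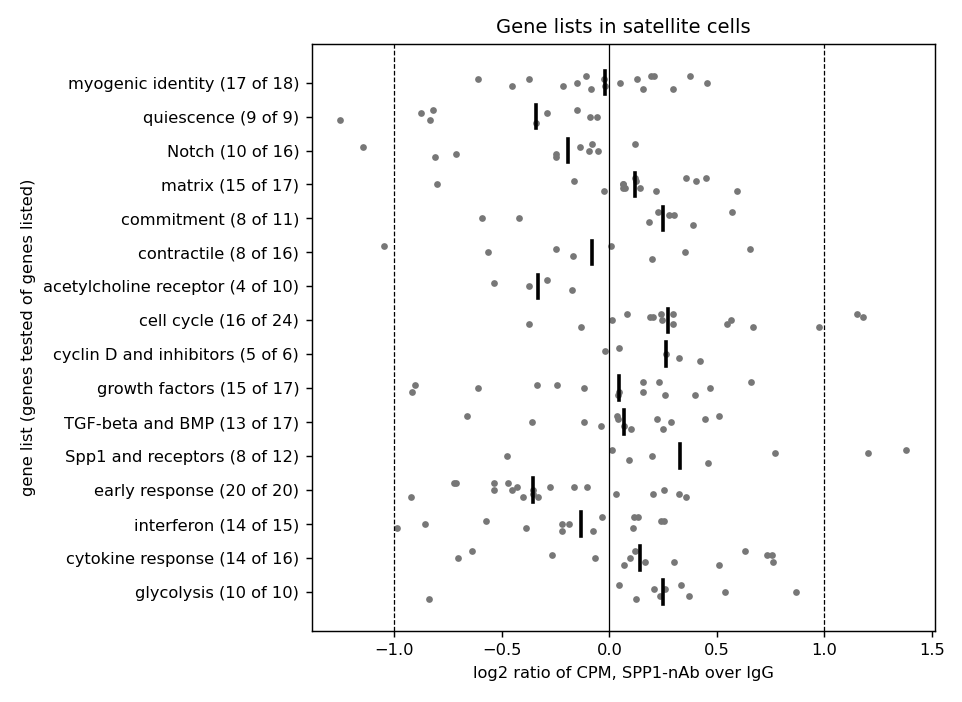
Log2 ratio of SPP1-nAb over IgG for each gene compared (gray points) in 16 gene lists of satellite cell biology (rows), with a black bar at the list's median and dashed lines at 2-fold. The medians of the early response and quiescence lists, at -0.35 and -0.34, and that of the acetylcholine receptor list, at -0.33, lie lowest, and that of *Spp1* and its receptors, at 0.33, lies highest.

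Genes of commitment had a median log2 ratio of 0.25 over the 8 compared of 11, with none past 2-fold and 6 above equality. *Myod1*, the regulator that marks activated satellite cells, was at 53.9 CPM in IgG and 79.9 in SPP1-nAb, a log2 ratio of 0.57 (0.33 to 0.81). *Cdkn1a*, which encodes the cell cycle inhibitor p21, was at 135 and 177 CPM. *Id3*, an inhibitor of myogenic factors, was at 1077 and 803 CPM, whereas its relative *Id2* was at 200 and 246. *Mef2c* had the lowest ratio of the 8 compared, -0.59, at 16.9 and 11.2 CPM.

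Of 16 genes of the contractile apparatus, 8 were compared, 4 on each side of equality, and only *Tnnc2* was past 2-fold, at 14.9 and 7.19 CPM. Its log2 ratio of -1.05 ran from -3.04 with at least 3 markers required to -0.52 with the *Myog* and *Mymk* exclusion left out. The skeletal actin *Acta1* was at 13.5 and 13.6 CPM and titin, *Ttn*, at 49.8 and 78.3. The slow troponin *Tnnt1* was at 63.7 and 56.7 CPM. In macrophage-type barcodes *Ttn* was at 8.73 and 5.36 CPM and *Tnnt1* at 7.86 and 7.15, below the satellite cells, whereas *Tnnc2* was at 31.7 and 13.1 and *Acta1* at 38.5 and 16.8, above them. Of 10 acetylcholine receptor and end plate genes, which denervated fibers are known to express, 4 were compared and all were below equality. *Musk*, the receptor kinase of the end plate, was at 147 and 113 CPM, *Rapsn* at 82.5 and 73.3, *Chrnb1* at 58.0 and 40.0 and *Chrna1* at 42.9 and 35.2.

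Cell cycle genes stood above equality in 14 of the 16 compared of 24, with a median log2 ratio of 0.27 and 2, *Ube2c* and *Ccne1*, past 2-fold. *Top2a*, the topoisomerase of dividing cells, was at 84.3 CPM in IgG and 97.0 in SPP1-nAb, *Pcna* at 67.6 and 68.2, and *Mki67* at 48.6 and 51.4. The counting intervals of all 3 held equality. The list summed to 469 and 586 CPM. *Tyms*, a thymidylate synthase, had the lowest ratio of the 16 compared, -0.38. Of cyclin D and related genes, 4 of the 5 compared of 6 were above equality, with a median log2 ratio of 0.26, and the levels were 163 and 218 CPM for *Myc*, 182 and 180 for *Ccnd3* and 98.8 and 102 for *Ccnd1*.

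Growth factor genes were split, with 9 of the 15 compared of 17 above equality and a median log2 ratio of 0.05. The IGF-binding proteins *Igfbp5* and *Igfbp7* were at 1280 and 1686 CPM and at 256 and 404 CPM, log2 ratios of 0.40 and 0.66. *Igf1* was at 70.0 and 37.0 CPM, a log2 ratio of -0.92, and *Spry2*, like *Spry1* an antagonist of FGF signaling, at 144 and 76.7 CPM, a log2 ratio of -0.90. The receptor *Fgfr1* was at 483 and 408 CPM. Of 17 TGF-β and BMP genes, 13 were compared, none past 2-fold, with a median of 0.07. The coreceptor *Tgfbr3* was at 454 and 287 CPM, a log2 ratio of -0.66, the receptor *Bmpr2* at 243 and 289, and the ligand *Bmp4* at 234 and 216. The ligand *Tgfb1*, at 51.0 and 72.5 CPM, had the highest ratio of the 13 compared, 0.51.

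The gene of the neutralized protein and the genes of its receptors were read as 1 list. Of 12, 8 were compared, 7 above equality, with a median log2 ratio of 0.33 and 2 past 2-fold. *Spp1* was at 44.5 CPM in IgG satellite cells and 116 in SPP1-nAb, but 82.4% and 61.2% of its UMIs came from 1% of the cells, and at equal depth 16.5% and 28.3% of macrophage-type barcodes had a UMI of it against 2.72% and 7.43% of satellite cells. Without thinning these shares came to 22.4% and 38.7% of macrophage-type barcodes and 3.18% and 10.8% of satellite cells. With at least 3 markers required its log2 ratio was 0.88, compared with 1.38. The receptor *Cd44* was at 176 and 300 CPM, a log2 ratio of 0.77 (0.64 to 0.90), and the integrin subunit *Itga5* at 22.4 and 51.4 CPM, a log2 ratio of 1.20 (0.86 to 1.55), or 0.65 with the lineage exclusion left out. *Itgb1*, the shared β subunit, was at 481 and 513 CPM, and *Itgav* at 64.9 and 74.3. *Itga8* was the only one of the 8 compared that lay below equality, at 20.0 and 14.4 CPM.

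Early response genes, which are known to be induced within minutes by injury and by tissue dissociation, were the most abundant list. All 20 were compared, 15 below equality and none past 2-fold, with a median log2 ratio of -0.35. *Fos* was at 4858 CPM in IgG and 2957 in SPP1-nAb, *Egr1* at 3056 and 1852 and *Jund* at 2274 and 1720, and *Nr4a1* had the lowest ratio, -0.93. The sum of the list was 18791 and 13515 CPM in satellite cells and 13270 and 9732 in all other barcodes. *Klf6*, at 265 and 339 CPM, was highest by ratio.

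Of 15 interferon genes, 14 were compared, 9 below equality and none past 2-fold, with *Ifit3* lowest at 20.6 and 10.4 CPM and *Ifitm3* at 1069 and 1156. Of 16 cytokine and cytokine response genes, 14 were compared, 10 above equality, with a median of 0.14. *Tnfrsf12a*, the receptor of TWEAK, was at 288 and 486 CPM, a log2 ratio of 0.76, and *Osmr*, the oncostatin M receptor, at 113 and 187, a log2 ratio of 0.73. *Cxcl1* was at 363 and 233 CPM and *Cxcl12* at 24.7 and 15.2, log2 ratios of -0.64 and -0.70. Of 10 glycolysis and hypoxia genes, 9 were above equality, with a median of 0.25. *Hk2*, the hexokinase of muscle, was at 103 and 188 CPM, a log2 ratio of 0.87, and *Vegfa*, the exception, at 52.0 and 29.0, a log2 ratio of -0.84. Over the 16 lists together 183 genes were compared, of which 4 were higher and 3 lower past 2-fold, with a median log2 ratio of 0.05, the same as over all genes.

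Since the share of cells with a UMI depends on depth, cells were thinned to 2000 UMIs each, which kept 1138 IgG and 781 SPP1-nAb satellite cells and left out 716 and 255 of lower depth. At this equal depth the share with *Pax7* was 64.8% in IgG and 61.1% in SPP1-nAb, and with *Chodl* 73.6% and 68.6%. Without thinning, where SPP1-nAb cells are deeper, the shares were 76.8% and 82.5% with *Pax7* and 86.3% and 84.7% with *Chodl*. *Calcr* was found in 30.8% (28.1 to 33.5) and 19.8% (17.1 to 22.8), and without thinning in 41.9% and 31.7%. These markers had admitted the cells at full depth, where SPP1-nAb cells are deeper, so their shares after thinning carry that selection and are given as a description. *Spry1* was found in 32.1% and 22.2%, or 40.3% and 31.9% without thinning, and *Gas1* in 48.3% and 32.4%, or 55.2% and 41.5%. *Heyl*, *Notch3* and *Cdh15* lay close together, with shares of 26.2% and 24.8%, 40.4% and 39.2%, and 15.3% and 17.0%, or 29.9% and 35.1%, 46.1% and 54.5%, and 18.2% and 23.9% without thinning.

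Shares of cells were also read for *Meg3*, *Nppc*, *Gal*, *Fosl1* and *Cd44*, and each differed in the direction of its level. Shares and levels come from the same UMIs of the same cells, so the shared direction adds no support. *Meg3* was found in 47.5% of IgG and 23.0% of SPP1-nAb satellite cells at equal depth, or 54.0% and 28.1% without thinning, *Nppc* in 32.5% and 15.1%, or 38.6% and 18.0%, and *Gal* in 26.4% and 9.60%, or 28.6% and 11.8%. *Fosl1* was found in 4.31% and 12.0%, or 5.29% and 17.8%, and *Cd44* in 20.1% and 33.7%, or 22.0% and 41.5%. The background was read in macrophage-type barcodes, whose median depth before thinning was 4186 UMIs in IgG and 5510 in SPP1-nAb compared with 2237 and 3018 in satellite cells. There *Calcr* was found in 0.45% and 0.21%, *Pax7* in 0.565% and 0.41%, *Gas1* in 1.02% and 0.42%, *Meg3* in 1.21% and 0.71%, *Nppc* in 0.38% and 0.12% and *Gal* in 0.38% and 0.11%. All of these lay far under the shares in satellite cells. In mesenchymal-type barcodes, however, *Gas1* was found in 56.5% and 49.8% at equal depth, above its 48.3% and 32.4% in satellite cells. *Meg3* was found there in 58.2% and 63.6%, also above its shares in satellite cells. The part of mesenchymal RNA in the *Gas1* and *Meg3* values was not tested. *Cd44*, which macrophages carry, was found in 61.2% and 72.8% of them and *Fosl1* in 0.51% and 1.39%, so that macrophage-type barcodes are no background for *Cd44*.

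**Figure D4:**
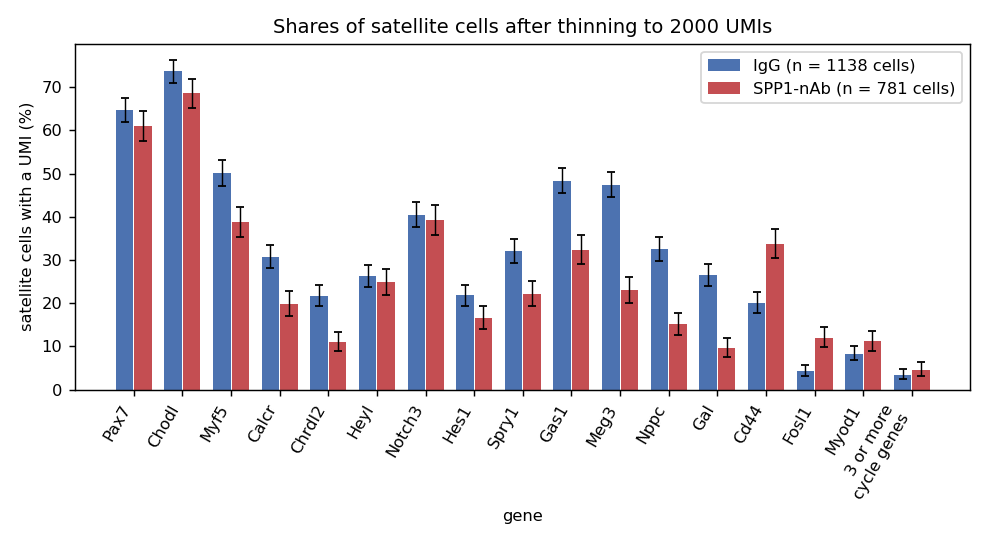
Share of satellite cells with a UMI of each gene (x axis) after every cell was thinned to 2000 UMIs, as a percentage on the y axis, for 1138 IgG and 781 SPP1-nAb cells, with error bars of the exact binomial 95% interval. *Meg3*, *Nppc* and *Gal* stand lower in SPP1-nAb, *Cd44* and *Fosl1* higher, and *Heyl* and *Notch3* have intervals that overlap, while the 5 marker genes on the left were used to choose the cells.

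Shares of cells with *Myod1* or cell cycle UMIs were read in the same way, and cells without such a UMI may still express these genes. *Myod1* had a share of 8.35% (6.81 to 10.1) in IgG and 11.1% (9.02 to 13.6) in SPP1-nAb at equal depth, and of 10.5% and 16.9% without thinning, against 0.10% and 0.14% of macrophage-type barcodes. A UMI of 3 or more cell cycle genes was found in 3.43% (2.45 to 4.66) and 4.61% (3.25 to 6.32), or 3.67% and 6.27% without thinning. Macrophage-type barcodes had 1.68% and 1.62% at equal depth, and 5.91% and 8.09% without thinning, above the satellite cells. With 2 or more cycle genes at equal depth the shares were 6.50% and 8.32% in satellite cells and 6.01% and 6.41% in macrophage-type barcodes. Whether macrophage-type barcodes held cycling cells themselves was not tested, so they are no background without cycling. A rate of cycling is therefore not read from these shares in either direction. The intervals of both measures overlapped at equal depth. The *Gfp* reporter was found in 8.0% and 8.58% of satellite cells at equal depth, or 10.2% and 13.1% without thinning, below its 26.7% and 33.9% in macrophage-type barcodes, and was not read as expression.

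The satellite cells with 3 or more cell cycle genes, 68 in IgG and 65 in SPP1-nAb, differed in level from the other 1786 and 971 at several genes. *Calcr* was at 88.4 and 25.3 CPM in these cells and at 337 and 187 in the others, and *Nppc* at 88.4 and 15.2 CPM and at 632 and 113. *Gas1* was at 255 and 154 CPM in cells with 3 or more cycle genes and 520 and 218 in the others. Within each set *Nppc* and *Gas1* were thus lower in SPP1-nAb. In the cells with 3 or more cycle genes, however, *Nppc* rested on 42 UMIs in IgG and 9 in SPP1-nAb, and *Calcr* on 42 and 15. *Calcr* helped to choose the cells, and deeper cells pass on 2 markers at a lower marker level, so its values here are a description. Other genes did not share this order. *Cdkn1c* was at 152 CPM in these cells and 94.1 in the others in IgG but at 82.7 and 95.2 in SPP1-nAb, and *Gal* at 175 and 506 CPM in IgG but at 213 and 103 in SPP1-nAb. *Ccnd1*, which encodes cyclin D1, was at 213 and 198 CPM in these cells and 87.1 and 83.8 in the others, and *Hmga2* at 25.3 and 91.2 compared with 6.49 and 12.3. The cells with 3 or more cycle genes were deeper, with medians of 6458 and 7803 UMIs against 2196 and 2892, and the part of depth in these differences was not tested. *Myod1* was found in 27.9% and 30.8% of them and in 9.80% and 16.0% of the others.

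The nearest other myogenic cells were barcodes with a *Myog* or *Mymk* UMI, of which 72 in IgG and 82 in SPP1-nAb had no gene of the excluded lineages. Of 5617 genes compared, 830 (14.8%) were at least 2-fold higher and 461 (8.21%) at least 2-fold lower in satellite cells than in these cells in both libraries. All 13 contractile genes compared were lower in satellite cells in both libraries, with *Acta1* at 13.5 and 13.6 CPM against 4339 and 3106, as were 6 of 10 commitment genes. Of the quiescence genes, 7 of 9 were higher in satellite cells. Among them, *Btg2* was at 653 and 356 CPM against 144 and 76.4, and *Spry1* at 214 and 121 against 20.6 and 12.9. *Cd34* was at 82.7 and 46.3 CPM against 4.12 and 2.35, the latter from 2 UMIs in each library. The other 2, *Cdkn1c* at 99.4 and 93.2 CPM against 4524 and 1852 and *Rb1*, were lower.

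In the same contrast, of the Notch genes, 5 of 9 were higher in satellite cells and none lower, with *Notch3* at 273 and 256 CPM against 8.24 and 23.5 and *Heyl* at 150 and 136 against 12.4 and 24.7. Of the matrix genes, 10 of 13 were higher and none lower, with *Col4a1* at 270 and 283 CPM against 49.4 and 8.23 and *Lama2* at 919 and 960 against 245 and 163. Of the early response genes 18 of 20 were higher and 1 lower, of the cytokine genes 10 of 12 higher and none lower, and of the glycolysis genes 6 of 9 lower and none higher. *Myod1*, at 53.9 and 79.9 CPM against 157 and 256, was lower in satellite cells in both libraries.

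To see whether the differences between libraries were particular to satellite cells, the same ratios were read in mesenchymal-type and macrophage-type barcodes. The difference between cell types was not tested, as each type had 1 library a group. *Nppc* and *Gal* were lower in SPP1-nAb in all 3, with log2 ratios of -2.58, -0.66 and -2.40 and of -1.98, -1.43 and -2.27 in satellite, mesenchymal-type and macrophage-type barcodes. Outside the satellite cells both were rare, *Nppc* at 11.2 and 7.09 CPM in mesenchymal-type and 3.91 and 0.74 in macrophage-type barcodes, and *Gal* at 3.82 and 1.42 and at 5.34 and 1.10. The part of free RNA in these low levels was not tested. *Fosl1* was higher in all 3, at 1.71, 0.84 and 1.16, as was *Hmga2*, at 1.59, 0.93 and 0.91. *Gas1* was lower in all 3, at -1.25, -0.50 and -1.55, as were *Spry1*, at -0.82, -0.23 and -1.52, *Notch2*, at -1.14, -0.87 and -0.53, *Btg2*, at -0.88, -0.33 and -0.88, and *Egr1*, at -0.72, -0.61 and -1.32. In macrophage-type barcodes, however, *Gas1* was only at 9.17 and 3.13 CPM and *Spry1* at 3.48 and 1.21. *Fosl1* and *Hmga2* were rare there too, found in 0.51% and 0.21% of the IgG barcodes at equal depth. The part of free RNA in these levels and shares was not tested either.

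The noncoding RNAs of the imprinted region on chromosome 12 did not share a direction across cell types. *Meg3* had a log2 ratio of -1.58 in satellite cells, 0.16 in mesenchymal-type and -0.97 in macrophage-type barcodes, *Rian* of -1.38, 0.36 and -1.44, and *Mirg* of -1.58, 0.61 and -0.69. In mesenchymal-type barcodes *Meg3* was at 756 and 848 CPM, while in macrophage-type barcodes it was at 9.34 and 4.78. *Kcne4* had -2.78, 0.45 and -1.33, and the macrophage-type value of *Mirg* rested on 10 UMIs in each library, with an interval that held equality. *Igfbp5*, at 0.40, -0.35 and -0.32, and *Igf2bp2*, at 1.47, 0.51 and -0.34, also had mixed signs, whereas *Itga5*, at 1.20, 0.21 and 0.10, and *Cd44*, at 0.77, 0.80 and 0.36, had the same sign throughout. *Meg3* was found at equal depth in 58.2% and 63.6% of mesenchymal-type barcodes, compared with 47.5% and 23.0% of satellite cells.

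**Figure D5:**
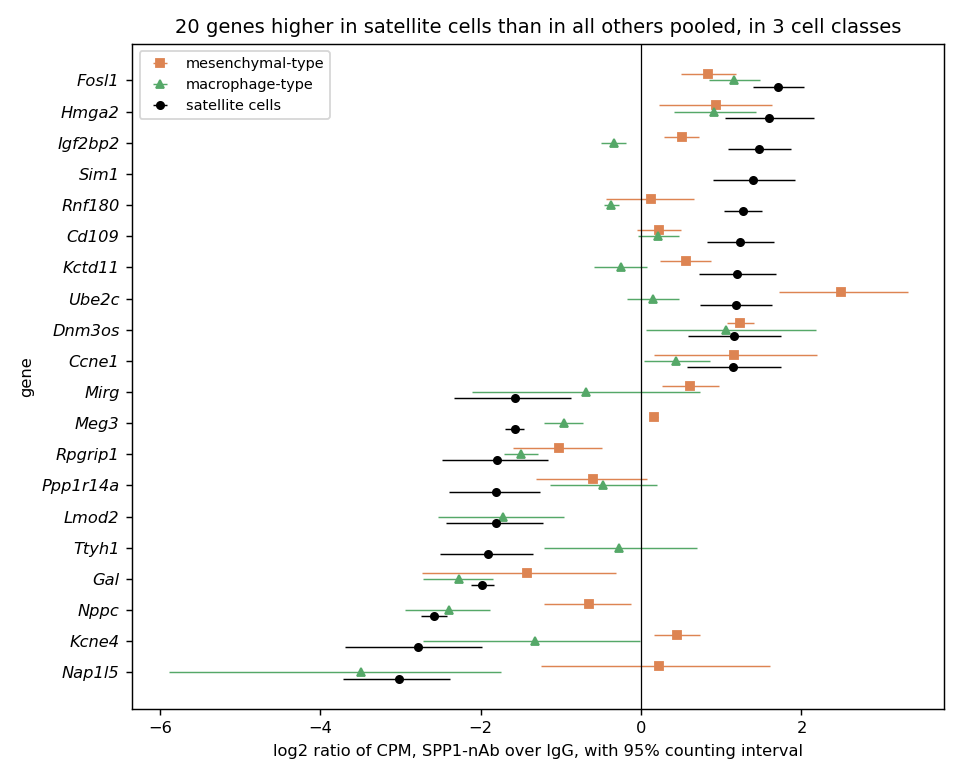
Log2 ratio of SPP1-nAb over IgG with its 95% counting interval (x axis) for the 10 highest and 10 lowest ratios among genes past 2-fold that were also higher in satellite cells than in all other barcodes pooled (20 genes, y axis), shown in satellite cells (black circles), macrophage-type (green triangles) and mesenchymal-type barcodes (orange squares), where a class had at least 20 UMIs of the gene and 1 in each library. *Meg3*, *Mirg* and *Kcne4* lie below 0 in satellite cells and above 0 in mesenchymal-type barcodes, while *Nppc* and *Gal* lie below 0 in all 3.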

How the data were processed

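Per the file headers and the methods, the authors deposited UMI counts per gene and barcode as Cell Ranger wrote them, 32287 features without normalization, before removal of ambient RNA or doublets. The headers name version 9.0.1 and the submitters' notes 8.0.0, and the sources name both GRCm39 and GRCm38. Coordinates are from GENCODE for GRCm39, which held 31674 of the identifiers. Raw counts were summed over the satellite cells of each library and divided by their total (CPM). Ratios carry exact binomial intervals, shares exact Clopper-Pearson intervals, and a call means 2-fold. No doublet caller was applied to the main results, and removal of the 10% of barcodes with the highest doublet score is an alternative. Criteria, gene lists and tests were chosen with earlier results of these data known. Genes named are those of the criteria, the 15 leading genes, 10 per direction by ratio, and from each list the 3 with the most UMIs and the highest and lowest ratio, besides genes added after their values were seen, which include *Rian* and further list members and genes of other cells. The comparison with *Myog* or *Mymk* barcodes was meant to require 2 markers, but that left 4 and 13 barcodes, so markers were not required. The ratio step was tested on simulated data. Python 3.11.15, numpy 2.4.6, scipy 1.17.1, pandas 2.3.3 and scikit-learn 1.9.0 were used.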

Additional observations from a re-analysis of the deposited data

Results flagged for a closer look

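Of the named genes past 2-fold between the libraries that were also higher in satellite cells than in all other barcodes pooled, 4 had a ratio of the opposite sign in mesenchymal-type barcodes, with at least 100 UMIs there and an interval clear of equality. Genes under 2-fold, such as *Igfbp5*, were not counted. The log2 ratio of SPP1-nAb over IgG there was 0.45 for *Kcne4*, 0.16 for *Meg3*, 0.61 for *Mirg* and 0.36 for *Rian*, against -2.78, -1.58, -1.58 and -1.38 in satellite cells. Of these, *Kcne4* and *Mirg* rested on few UMIs in satellite cells, 131 and 85 in IgG and 14 and 21 in SPP1-nAb. The difference between the cell types was not tested, because each had 1 library a group.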

How the results depend on the processing

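Of 84 values of the main comparisons recomputed under an alternative, 54 stayed close, and the SPP1-nAb share of satellite cells was below the IgG share throughout. In IgG and SPP1-nAb the shares were 4.84% and 2.14% with at least 3 markers, 8.51% and 4.51% without doublet-like barcodes, 9.40% and 5.42% without the lineage exclusion, 5.201% and 2.83% with the criteria applied after thinning, and 18.8% and 13.6% of barcodes without *Ptprc*. The numbers of genes past 2-fold, 42 higher and 82 lower, became 77 and 155 at a minimum of 50 UMIs and 17 and 35 at 300, since more or fewer genes were compared. With at least 3 markers 22 genes were higher, and with free RNA removed 142 were lower. Of listed genes 4 were higher, or 1 with at least 3 markers, 8 without the lineage exclusion and 9 without the *Myog* and *Mymk* exclusion, and 3 were lower, or 6 with free RNA removed. Against *Myog* or *Mymk* barcodes with 2 markers, 458 genes were higher and 250 lower in satellite cells. Shares by cycle genes were 1.67% and 2.17% at 1000 UMIs and 6.50% and 8.32% with 2 or more cycle genes, and *Myod1* shares 5.44% and 7.58% at 1000 UMIs and 10.5% and 16.9% without thinning. *Ube2c* turned to a log2 ratio of -0.36 with at least 3 markers, and the Schwann cell sum to 0.93 in cells of 1500 to 4500 UMIs. The cause was not tested. Of 37 genes past 2-fold that the text names, 36 kept their sign and 23 stayed past 2-fold under every alternative that gave a value. The log2 ratio ranged from -2.77 to -2.19 for *Nppc*, -2.77 to -1.505 for *Gal*, -1.65 to -1.35 for *Meg3*, -3.94 to -2.72 for *Nap1l5* and 1.502 to 2.06 for *Fosl1*. No paired analysis was possible because each group had 1 library, and with 1 library none could be left out.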
